A study of Mus musculus with 12 samples.

Results

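The transcription factors that hold blood-forming cells in the stem and progenitor state were followed by their rows in 12 RNA-seq libraries of mouse bone marrow. The 10 genes were taken by name and are 10 of 31272 gene names in the tables. They are Tal1, Lyl1, Lmo2, Runx1, Erg, Etv6, Meis1, Hoxa9, Hlf and Myb. Each name stands on 1 row of every library, and each was tested in every comparison below.

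These proteins work in shared complexes. Tal1 and Lyl1 are related basic helix-loop-helix factors that bind E-box sequences together with an E protein such as Tcf3, and the adaptor Lmo2, with its partner Ldb1, joins them to a GATA factor. Runx1 binds DNA with Cbfb, Erg and Etv6 belong to the ETS family, Meis1 and Hoxa9 are homeodomain proteins that act together, Hlf is a bZIP factor typical of stem cells, and Myb is a factor of dividing progenitors.

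The libraries came from bone marrow of WT mice and carry the label hematopoietic stem cell (HSC). The 4 groups of 3 were Ctrl, IR, Ab_IR and L_IR, where IR stands for ionizing radiation, and Ab and L are written as in the labels, which give no longer form. The irradiated groups were collected 3 days after exposure. The same protocol text stands on Ctrl, the labels give no age, and they do not say whether replicates came from separate mice, so the p-values measure the spread between these libraries, which may be technical. In the study's methods HSCs are Lineage- Sca-1+ c-Kit+ Flt3- CD34- cells.

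Values were FPKM, which scale the fragments of a gene by its length and by the fragments mapped, so levels of genes can be set side by side per length. The files carry no read counts, and the depth behind a value is unknown. Each library had 11467 to 12167 rows of 1 FPKM or more. The share of rows listed at 0 was 44.1% in Ctrl replicate 1 and 24.7% to 27.3% in the others. The heart peptide gene Nppa reached 51.2 to 63.9 FPKM in the 3 IR libraries and in Ctrl replicates 2 and 3, and no more than 0.26 FPKM in the other 7 libraries. This split runs along the border between IR and the Ab_IR and L_IR groups and is bridged by Ctrl replicate 1 alone, so a batch and those group differences cannot be told apart. A fit with this split as a term takes the split's size from Ctrl replicate 1 beside Ctrl replicates 2 and 3. In such a fit Ab_IR and L_IR are set against Ctrl replicate 1 alone, and the p-values hold no spread of that library.

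The label was checked against marker genes. Of 11 HSC markers, 6 were under 1 FPKM in all libraries, namely Tek, Slamf1, Mecom, Fgd5, Hoxb5 and Ctnnal1. Kit and Ly6a, which encode the c-Kit and Sca-1 that the gate selects, were listed in Ctrl at 21.3 to 25.45 FPKM and 25.9 to 41.1 FPKM, and in IR at 6.7 to 7 FPKM and 53.7 to 61.5 FPKM, Kit being lower and Ly6a higher than in Ctrl. Flt3 and Cd34, whose proteins the gate leaves out, were listed at 9.13 to 12.1 FPKM and 18.99 to 20.65 FPKM in Ctrl and at 0.96 to 1.22 FPKM and 3.66 to 3.91 FPKM in IR. Mpo, a granule enzyme of the neutrophil lineage, was listed at 2859 to 3432 FPKM in Ctrl. Of the HSC markers 3 were tested in IR against Ctrl and were lower, 2 of them having entered through Ctrl alone, with list sums of 22.38 to 27.26 FPKM in Ctrl, 7.43 to 7.99 FPKM in IR, 23.21 to 25.55 FPKM in Ab_IR and 24.68 to 25.89 FPKM in L_IR. Much of the sum was Eng, at means of 16.1 FPKM in Ctrl and 4.12 FPKM in IR, while Slamf1 and Fgd5, not tested, were at 0.253 and 0.060 FPKM in Ctrl and 0.343 and 0.103 FPKM in IR, these 3 being named after their values were seen. Of 8 genes of the sort 3 were higher and 4 lower in IR than in Ctrl, 2 of these having entered through Ctrl alone. Over all rows tested in that comparison 17.5% were higher and 25.5% lower. Itgam, the gene of the gate's lineage marker Mac-1, was listed at 30.6 to 34.6 FPKM in Ctrl and 51.3 to 52.97 FPKM in IR. In Ctrl, Ly6g and Cd3e, also lineage markers, were at 3.88 to 11.1 and 1.21 to 1.65 FPKM. In IR they were at 4.77 to 7.33 and 0.76 to 0.81 FPKM. Transcripts of the gate's positive markers were thus present, and so were those of Flt3, Cd34 and these lineage markers. Meanwhile 6 of the 11 HSC markers were under 1 FPKM throughout. In bulk libraries fewer cells of a type and less RNA per cell cannot be told apart.

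In unirradiated cells the 10 factors spanned a wide range of levels. Lmo2 led at 77.0 ± 4.72 FPKM (mean ± SD, n = 3), above Lyl1 at 62.0 ± 3.87 FPKM and Myb at 59.8 ± 7.85 FPKM. Etv6 followed at 30.6 ± 4.14 FPKM, then Tal1 at 21.1 ± 4.03 FPKM, Erg at 14.2 ± 6.68 FPKM and Runx1 at 9.23 ± 1.2 FPKM. Hoxa9 at 2.92 ± 0.229 FPKM, Hlf at 2.04 ± 0.326 FPKM and Meis1 at 1.67 ± 0.134 FPKM were the lowest. The ranges of Lyl1 and Myb overlapped in Ctrl, as did those of Tal1 and Erg, of Erg and Runx1, and of Hlf and Meis1. In IR no neighbours overlapped, and the order differed, with Erg above Tal1, and Hlf above Hoxa9.

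The sequences upstream of the start sites are shown for 4 members. Tal1, Meis1 and Hoxa9 were taken as genes that fell in IR and were higher in both other irradiated groups. Lyl1 was taken as the relative of Tal1 that passed in no comparison fitted on 2 groups alone with the values as deposited. The windows are the 250 bases before the RefSeq start (GRCm38.p6), at chr4:115056176-115056425 on the plus strand for Tal1 (the first of 2 RefSeq windows of the gene), chr11:19018970-19019219 on the minus strand for Meis1, chr6:52227371-52227620 on the minus strand for Hoxa9 and chr8:84701207-84701456 on the plus strand for Lyl1. They are written 5′ to 3′ along the gene, and capitals mark matches on either strand to the GATA core GATAA, the E-box CANNTG, the ETS core CGGAAG, the RUNX motif TGTGGT and the MEIS motif TGACAG.
Tal1: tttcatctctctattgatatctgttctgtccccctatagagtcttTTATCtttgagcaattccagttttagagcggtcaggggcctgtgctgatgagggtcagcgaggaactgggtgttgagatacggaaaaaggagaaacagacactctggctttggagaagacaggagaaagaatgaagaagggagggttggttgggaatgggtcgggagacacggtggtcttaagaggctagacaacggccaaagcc
Meis1: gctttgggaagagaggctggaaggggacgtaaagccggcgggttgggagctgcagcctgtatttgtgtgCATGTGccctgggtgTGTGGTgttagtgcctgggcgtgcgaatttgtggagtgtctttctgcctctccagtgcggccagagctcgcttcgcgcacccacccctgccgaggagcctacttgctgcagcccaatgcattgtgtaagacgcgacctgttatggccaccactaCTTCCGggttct
Hoxa9: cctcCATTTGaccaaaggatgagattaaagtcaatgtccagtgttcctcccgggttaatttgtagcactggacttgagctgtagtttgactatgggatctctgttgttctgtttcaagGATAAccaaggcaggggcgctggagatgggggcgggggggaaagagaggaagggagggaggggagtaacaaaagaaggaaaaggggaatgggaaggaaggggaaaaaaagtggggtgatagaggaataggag
Lyl1: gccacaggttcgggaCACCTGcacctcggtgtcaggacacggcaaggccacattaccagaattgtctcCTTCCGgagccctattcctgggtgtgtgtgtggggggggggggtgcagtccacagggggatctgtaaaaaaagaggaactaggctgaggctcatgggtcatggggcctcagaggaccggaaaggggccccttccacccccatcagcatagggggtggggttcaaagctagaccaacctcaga

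The Tal1 window held 1 GATA core, 205 bases before the start, and no E-box. The Meis1 window held an E-box, a RUNX motif and an ETS core at 181, 166 and 12 bases before the start, Hoxa9 an E-box and a GATA core at 246 and 132 bases, and Lyl1 an E-box and an ETS core at 235 and 182 bases. Over 13 windows of 9 members in RefSeq, 3 held the GATA core, 6 an E-box, 2 the ETS core, 1 the RUNX motif and 1 the MEIS motif. Of all 32851 windows of this length, 22.6% held the GATA core, 66.2% an E-box, 13.6% the ETS core, 14% the RUNX motif and 15.9% the MEIS motif. The last 16 bases of the Meis1 window, ETS core included, lie within a GENCODE exon of the gene. A match describes the letters in the window and is no evidence of binding.

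Of the members Tal1 had the largest fitted differences from IR with the pseudocount of 1. Tal1 (chr4:115056426-115071755, plus strand, 7 merged exons, GRCm38) encodes the factor that starts blood formation and is needed for red cells and megakaryocytes. It lay at 16.4, 22.9 and 23.8 FPKM in Ctrl and at 8.11, 7.96 and 8.3 FPKM in IR. It was found at 19.6, 21.4 and 23.2 FPKM in Ab_IR and at 19.01, 17.1 and 16.8 FPKM in L_IR. All 3 IR libraries lay below the other 9, the Ab_IR libraries lay above those of L_IR, and both overlapped Ctrl. Tal1 fell in IR against Ctrl, where the Ctrl mean was 2.59 times the IR mean (log2 fold change -1.26, SE 0.139, adjusted p = 0.000835). It was higher in Ab_IR than in IR by 2.63 times in the means (log2 fold change 1.29, SE 0.0613, adjusted p = 2.47e-06). It was higher in L_IR than in IR by 2.17 times (log2 fold change 1.03, SE 0.0501, adjusted p = 4.01e-06), just past the fold threshold.

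All fold changes are on the log2(FPKM + 1) scale, which understates the change of genes of a few FPKM, and all adjusted p-values come from limma with Benjamini-Hochberg adjustment over every row tested. A gene was called at an adjusted p under 0.05 with an absolute log2 fold change above 1. Tal1 was the 1 member called in IR against Ctrl, where 7.6% of 12072 rows were called. It was also the 1 member called in Ab_IR against IR, where 7.57% of 12067 rows were, and in L_IR against IR, where 6.22% of 12163 rows were. Among 10 genes, 1 call is near these shares, so the count alone says nothing particular of the list. The L_IR call ended without L_IR replicate 1, where 0 members were called at a Tal1 log2 fold change of 0.97, and under quantile normalization and median scaling, where it was 0.99 and 0.97, while the adjusted p stayed between 2.59e-06 and 0.000116 over all alternatives. Without Ctrl replicate 1, with all libraries on the same side of the Nppa split, the Tal1 difference of IR from Ctrl was -1.42 (SE 0.049, adjusted p = 7.01e-06).

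**Figure D1:**
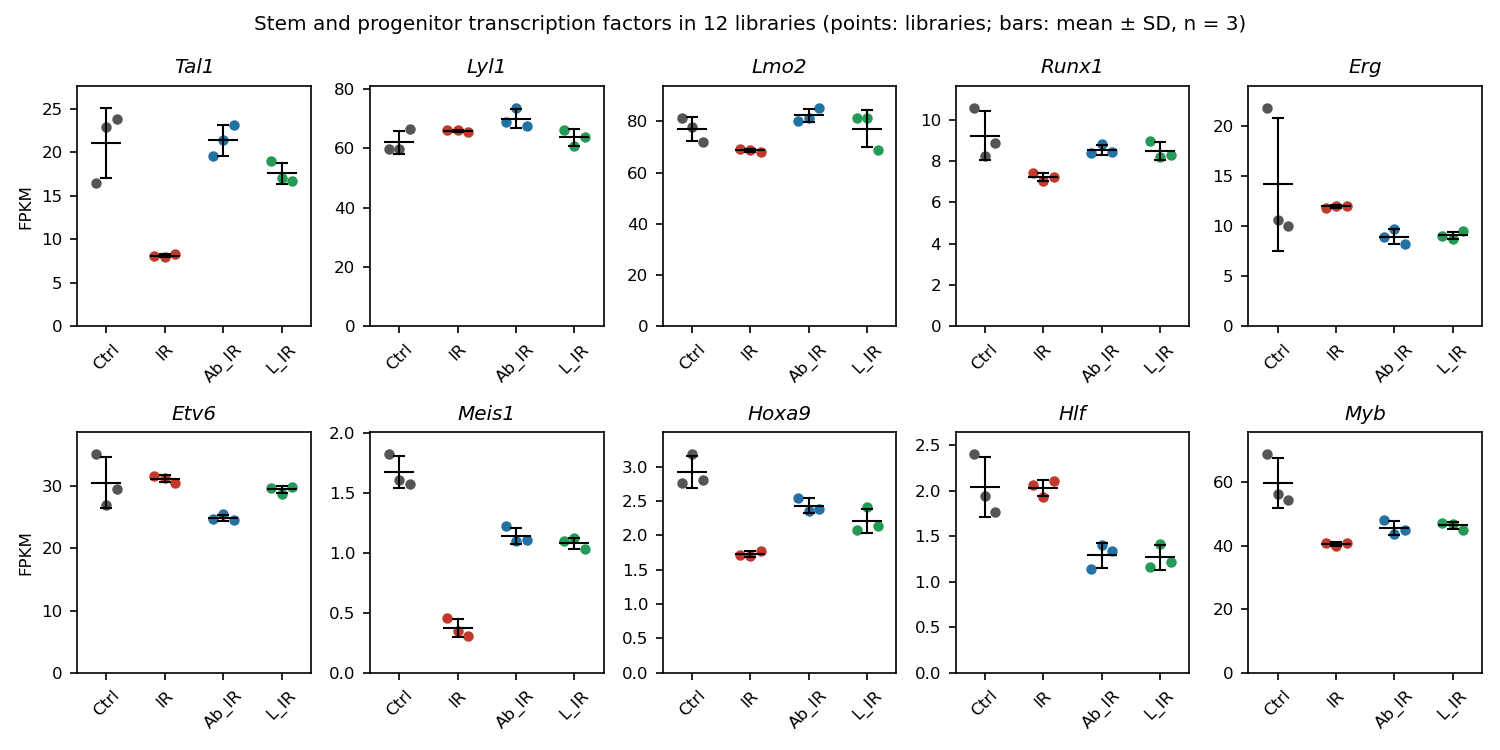
FPKM (vertical axes, from 0) of each of the 10 factors in the 12 libraries, by group (horizontal axes), with points for libraries and bars for the mean ± SD of 3. Tal1 and Meis1 sit lower in all IR libraries than in all others, Tal1 at 7.96 to 8.30 FPKM, while Lyl1 stays between 59.75 and 73.6 FPKM throughout and Erg is at 21.9 FPKM in Ctrl replicate 1 alone.

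Neither Lyl1 nor Lmo2, which work with or beside Tal1, passed the test in IR against Ctrl with the values as deposited and all 6 libraries. Lyl1 (chr8:84701457-84704715, plus strand) was listed at 59.8, 59.75 and 66.45 FPKM in Ctrl and at 66.1, 66.2 and 65.5 FPKM in IR. It stood at 68.7, 73.6 and 67.5 FPKM in Ab_IR and at 66.25, 60.7 and 63.8 FPKM in L_IR. Lyl1 passed the test in none of the 6 comparisons fitted on 2 groups alone with the values as deposited, with adjusted p from 0.0658 to 0.785. Under alternatives it passed in L_IR against IR with median scaling (-0.11, adjusted p = 0.0242). With the Nppa split, which sets Ab_IR against Ctrl replicate 1 alone, the Lyl1 difference of Ab_IR from Ctrl was 0.22. Its log2 difference of IR from Ctrl was 0.09, with a 95% interval of -0.07 to 0.25, which leaves out a fall of the size seen in Tal1.

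Lmo2 (chr2:103957986-103981878, plus strand), the LIM-only adaptor, was listed at 81.2, 77.95 and 71.9 FPKM in Ctrl and at 69.4, 68.75 and 68.01 FPKM in IR. Its level was at 80.05, 81.4 and 85.3 FPKM in Ab_IR and at 81.4, 81.1 and 69 FPKM in L_IR. The IR libraries were below all Ctrl and Ab_IR libraries, but L_IR replicate 3 fell among them. Lmo2 differed by -0.16 (log2, SE 0.0654) between IR and Ctrl, which missed the threshold (adjusted p = 0.0933). It passed with quantile normalization, at -0.26 (adjusted p = 0.0437), and without Ctrl replicate 3, at -0.21 (adjusted p = 0.0376). It was higher in Ab_IR than in IR by 0.26 (SE 0.0352, adjusted p = 0.000473), by 0.10 without immunoglobulin genes (adjusted p = 0.0421), and with the Nppa split as a term the difference was 0.14 and did not pass (adjusted p = 0.292). The difference of L_IR from IR was 0.16 (adjusted p = 0.0562), and without L_IR replicate 3 it was 0.24 (adjusted p = 0.000417), with quantile normalization 0.19 (adjusted p = 0.0264) and with a replicate block 0.16 (adjusted p = 0.0419).

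Meis1 (chr11:18879817-19018985, minus strand, 11 merged exons), the homeodomain cofactor that keeps stem cells quiescent, had the largest ratio of all members. It was listed at 1.82, 1.61 and 1.57 FPKM in Ctrl and at 0.46, 0.35 and 0.31 FPKM in IR. It lay at 1.22, 1.1 and 1.11 FPKM in Ab_IR and at 1.1, 1.12 and 1.03 FPKM in L_IR. The IR libraries lay below all others, and Ctrl lay above both Ab_IR and L_IR, which overlapped each other. The Ctrl mean was 4.46 times the IR mean, the Ab_IR mean 3.06 times and the L_IR mean 2.9 times. Meis1 fell in IR against Ctrl (log2 fold change -0.96, SE 0.0955, adjusted p = 0.000553) and was higher in Ab_IR (0.64, SE 0.0697, adjusted p = 0.000137) and L_IR (0.60, SE 0.067, adjusted p = 0.000211) than in IR.

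These levels were low. Since no IR library reached 1 FPKM, Meis1 passed the filter of 1 FPKM in 3 libraries through the other group, so that its difference was in part selected by the filter. With a pseudocount of 0.1 in place of 1 its log2 difference of IR from Ctrl was -1.91 and it was called too, as it was at 1.40 in Ab_IR and 1.33 in L_IR against IR. It was also called without IR replicate 1, where the difference just passed the fold threshold at -1.0026. Of the Meis1 exon bases, 9.77% are shared with Gm37818 and 8.51% lie opposite the antisense gene Gm16140, listed at means of 0.17 and 0.06 FPKM. Whether the authors counted by strand is not stated, so reads of these genes may not be told apart.

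Hoxa9 (chr6:52223100-52231089, minus strand), the partner of Meis1, followed the same order at a smaller size. It was found at 2.76, 3.18 and 2.81 FPKM in Ctrl and at 1.71, 1.7 and 1.77 FPKM in IR. It stood at 2.55, 2.35 and 2.38 FPKM in Ab_IR and at 2.08, 2.41 and 2.14 FPKM in L_IR. The IR libraries were again below all others and Ctrl above all others, with Ab_IR and L_IR overlapping between them. Hoxa9 fell in IR by 0.52 on the log2 scale (SE 0.0793, adjusted p = 0.00292) and was higher in Ab_IR by 0.33 (SE 0.0518, adjusted p = 0.000947) and in L_IR by 0.23 (SE 0.0566, adjusted p = 0.00889). All 3 were smaller after quantile normalization, at -0.32 (adjusted p = 0.0221), 0.15 (adjusted p = 0.0303) and 0.016 (adjusted p = 0.832), and the last no longer passed.

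Myb (chr10:21124935-21160984, minus strand, 15 merged exons), which drives the division of progenitors, was listed at 68.8, 56.3 and 54.35 FPKM in Ctrl and at 40.8, 39.9 and 41 FPKM in IR. Its level was at 48, 43.6 and 44.9 FPKM in Ab_IR and at 47.3, 46.7 and 45.1 FPKM in L_IR. Every irradiated library was below every Ctrl library, and the IR libraries were the lowest. Myb fell in IR against Ctrl (log2 fold change -0.54, SE 0.0973, adjusted p = 0.00562), and the difference was -0.44 without Ctrl replicate 1 (adjusted p = 0.00028). It was higher than IR by 0.16 in Ab_IR (adjusted p = 0.0113) and by 0.19 in L_IR (adjusted p = 0.000758). With the Nppa split as a term in a fit of all 12 libraries these 2 differences turned to -0.15 (adjusted p = 0.0947) and -0.12 (adjusted p = 0.171), and in the joint fit without it they did not pass (adjusted p = 0.104 and 0.0709).

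Runx1 (chr16:92601466-92826149, minus strand), the DNA-binding subunit of core-binding factor, was listed at 10.6, 8.25 and 8.87 FPKM in Ctrl and at 7.4, 7.02 and 7.22 FPKM in IR. It was listed at 8.38, 8.82 and 8.43 FPKM in Ab_IR and at 8.97, 8.19 and 8.28 FPKM in L_IR. The IR libraries were the lowest, and the other groups overlapped each other. Runx1 was lower in IR than in Ctrl by 0.31 on the log2 scale, near the threshold (SE 0.0952, adjusted p = 0.0392). It did not pass in 9 of 15 alternatives. Without Ctrl replicate 3 the difference was -0.33 (adjusted p = 0.069), and without IR replicate 1, 2 or 3 it was -0.33, -0.29 and -0.31 (adjusted p = 0.099, 0.128 and 0.114). It was -0.24 with quantile normalization (adjusted p = 0.111), -0.27 with median scaling (adjusted p = 0.0583), -0.24 without immunoglobulin genes (adjusted p = 0.182) and -0.31 with no filter (adjusted p = 0.0811) or a replicate block (adjusted p = 0.0556). It was higher than IR by 0.22 in Ab_IR (adjusted p = 0.00262) and by 0.21 in L_IR (adjusted p = 0.00486). With the Nppa split as a term the same differences were -0.060 (adjusted p = 0.554) and -0.070 (adjusted p = 0.499), and with quantile normalization 0.14 (adjusted p = 0.0195) and 0.12 (adjusted p = 0.0403).

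The ETS factors and Hlf did not pass the test in IR against Ctrl when those groups were fitted alone with all 6 libraries, and were lower in Ab_IR and L_IR than in IR. Hlf (chr11:90336536-90390895, minus strand) was listed at 2.4, 1.94 and 1.77 FPKM in Ctrl and at 2.06, 1.93 and 2.11 FPKM in IR. It lay at 1.14, 1.4 and 1.34 FPKM in Ab_IR and at 1.16, 1.42 and 1.22 FPKM in L_IR. The 6 Ab_IR and L_IR libraries all lay below the 6 others, and Ctrl and IR overlapped. The difference of IR from Ctrl was 0.00 on the log2 scale (95% interval -0.24 to 0.25, adjusted p = 0.983). Hlf was lower than in IR by -0.40 in Ab_IR (SE 0.0651, adjusted p = 0.00106) and by -0.42 in L_IR (SE 0.0628, adjusted p = 0.000902). These differences were -0.66 and -0.67 with the Nppa split as a term, and -0.62 and -0.65 with a pseudocount of 0.1.

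Erg (chr16:95359169-95586593, minus strand), an ETS activator needed for stem cell maintenance, was listed at 21.9, 10.6 and 10.01 FPKM in Ctrl and at 11.8, 12.1 and 12.1 FPKM in IR. It was found at 8.93, 9.74 and 8.21 FPKM in Ab_IR and at 9.02, 8.78 and 9.5 FPKM in L_IR. Ctrl replicate 1 was far above all other libraries, and the Ab_IR and L_IR libraries were below all IR and Ctrl libraries. The difference of IR from Ctrl was -0.14 (SE 0.274, adjusted p = 0.713), and without Ctrl replicate 1 it was 0.20 (SE 0.0503, adjusted p = 0.0151). Erg was lower than in IR by -0.38 in Ab_IR (SE 0.0594, adjusted p = 0.000856) and by -0.36 in L_IR (SE 0.0365, adjusted p = 0.000129). In a single fit of all 12 libraries, whose spread includes Ctrl replicate 1, these adjusted p were 0.158 and 0.201. With the Nppa split added the differences were -1.40 and -1.38. That term is fitted from Ctrl replicate 1 beside Ctrl replicates 2 and 3, where Erg was at 21.9 FPKM beside 10.6 and 10.01 FPKM.

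Etv6 (chr6:134035700-134270158, plus strand), an ETS repressor needed for adult stem cells to persist, was listed at 35.1, 27.05 and 29.6 FPKM in Ctrl and at 31.7, 31.4 and 30.6 FPKM in IR. It stood at 24.7, 25.5 and 24.6 FPKM in Ab_IR and at 29.8, 28.8 and 29.85 FPKM in L_IR. Ab_IR lay below every other library, and L_IR lay below IR with a small gap. Ctrl and IR overlapped, with a difference of 0.04 (95% interval -0.20 to 0.28, adjusted p = 0.798). With the Nppa split as a term it was 0.14 (adjusted p = 0.0188). Etv6 was lower in Ab_IR than in IR by -0.31 (SE 0.0341, adjusted p = 0.000141), and by -0.62 with the Nppa split (adjusted p = 3.4e-05). The difference of L_IR from IR was -0.08 (adjusted p = 0.0373), and it no longer passed on leaving out IR replicate 1 or 2 or any 1 of the L_IR libraries (-0.09 to -0.06, adjusted p from 0.053 to 0.108). Over 15 alternatives it ranged from -0.38 with the Nppa split (adjusted p = 0.00104) to -0.016 with quantile normalization (adjusted p = 0.657), and it passed in 6.

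By the adjusted p alone, 0 members were higher and 5 were lower in IR than in Ctrl, where 17.5% and 25.5% of rows were higher and lower. In Ab_IR against IR, 6 members were higher and 3 lower, with 39.4% and 29.4% of rows. In L_IR against IR, 5 were higher and 3 lower, with 40.8% and 26% of rows. Meis1, counted as lower in IR in all 3 comparisons, had entered the test through the other group alone. It is also in the medians that follow. The median log2 difference of the members was -0.235 in IR against Ctrl, 0.189 in Ab_IR against IR and 0.175 in L_IR against IR, beside -0.046, 0.061 and 0.073 over all rows tested. These comparisons share the IR libraries, so they are given side by side and not as separate evidence. Rescaling without immunoglobulin genes shifted the median of all rows by -0.129 in Ab_IR against IR, and under it Myb and Runx1 differed by 0.012 (adjusted p = 0.853) and 0.081 (adjusted p = 0.194).

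**Figure D2:**
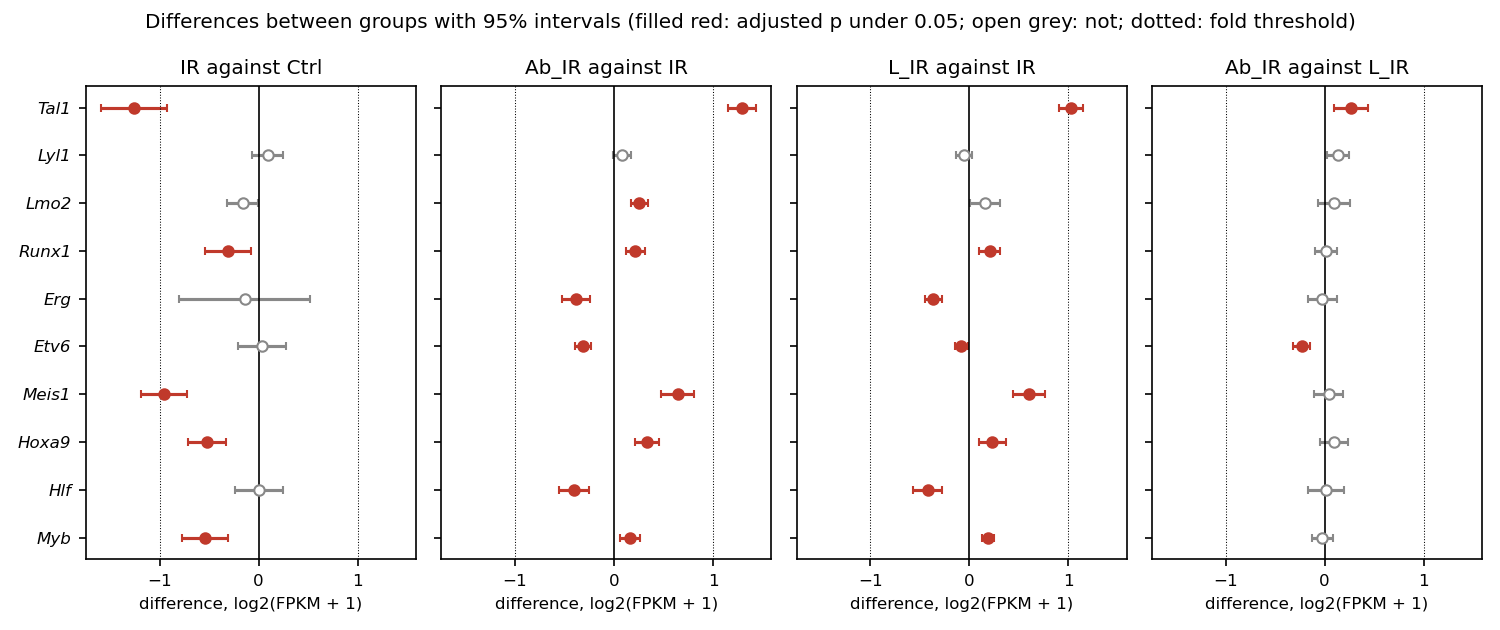
Log2 differences with 95% intervals (horizontal axis, log2(FPKM + 1)) of the 10 factors in 4 comparisons, filled in red where the adjusted p was under 0.05. Tal1 lies at -1.26, 1.29 and 1.03 in the first 3 panels, Hlf and Erg lie left of 0 in both comparisons with IR, and the widest interval in the first panel is that of Erg, from -0.80 to 0.52.

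Ab_IR and L_IR were compared with each other, both groups being on the same side of the Nppa split. No member was called, at 0 members beside 0.533% of 12194 rows, and 0 members were past the fold threshold at an unadjusted p under 0.05. At that unadjusted p 3 members differed in limma, and after adjustment 1 was higher and 1 lower in Ab_IR, where 18.2% of rows were higher and 19.8% lower. Tal1 was higher in Ab_IR by 0.27 (SE 0.0717, adjusted p = 0.0241), with no overlap of the groups. Without L_IR replicate 3 its adjusted p was 0.0821, without L_IR replicate 2 it was 0.0756, without Ab_IR replicate 2 it was 0.0648, without Ab_IR replicate 3 it was 0.0601, with no filter 0.0691 and with a replicate block 0.0627. Etv6 was lower in Ab_IR by -0.23 (SE 0.0358, adjusted p = 0.00266) and passed on leaving out any 1 library, at adjusted p from 0.00616 to 0.0161. In the joint fit of all 12 libraries 0 members passed here, with Etv6 at an adjusted p of 0.0564 and Tal1 at 0.148. For Meis1 the difference was 0.04 with a 95% interval of -0.11 to 0.19, and for Hlf 0.02 with an interval of -0.16 to 0.20. Rescaling without immunoglobulin genes shifted the median of all rows by -0.122 here and the Tal1 difference to 0.13 (adjusted p = 0.167), that of Etv6 to -0.37 (adjusted p = 0.000763) and that of Myb to -0.17 (adjusted p = 0.0349).

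Against unirradiated cells no member passed the test in either group when the 2 groups were fitted alone. In Ab_IR against Ctrl 0 members were called beside 0.923% of 12134 rows, and 0 were higher or lower beside 1.45% and 0.651% of rows. In L_IR against Ctrl 0 members were called beside 2.65% of 12251 rows, and 0 were higher or lower beside 4.76% and 4.08% of rows. At an unadjusted p under 0.05 limma gave 4 members in each comparison, all lower than Ctrl. They were Meis1, Hlf, Myb and Etv6 in Ab_IR (adjusted p = 0.156, 0.146, 0.143 and 0.206) and Meis1, Hoxa9, Hlf and Myb in L_IR (adjusted p = 0.0596, 0.0995, 0.0711 and 0.0826).

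These counts moved with the fit and with 1 Ctrl library. In a joint fit of all 12 libraries the comparisons of Ab_IR and of L_IR with Ctrl each had 4 members that passed, and limma without a trend gave 1 for L_IR. With the Nppa split as a term the comparison is with Ctrl replicate 1 alone, so no count is given for it. Without Ctrl replicate 1, 5 members were lower in L_IR than in Ctrl, with Tal1 at -0.39 (adjusted p = 0.0107), Myb at -0.25 (adjusted p = 0.0143), Meis1 at -0.31 (adjusted p = 0.0323), Hlf at -0.33 (adjusted p = 0.0402) and Hoxa9 at -0.32 (adjusted p = 0.0414). In Ab_IR 0 members passed without that library, the lowest adjusted p being 0.0565 for Myb. Ctrl replicate 1 is the single Ctrl library on the Ab_IR and L_IR side of the Nppa split, so no replicated comparison with Ctrl within that side could be made. The Tal1 difference of Ab_IR from Ctrl was 0.04, with a 95% interval of -0.32 to 0.39, which leaves out a loss as large as that in IR.

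Genes that work with the 10 factors were taken as lists. Of 20 partner factors and cofactors, 19 were tested in IR against Ctrl, and 4 were higher and 9 lower, 1 of which entered through Ctrl alone, where 17.5% of all rows were higher and 25.5% lower. Gata2, the GATA factor of stem cells and mast cells that joins Tal1 and Lmo2, was the 1 called. That is 1 of 19 beside 7.6% of all rows, so the count alone says nothing particular of the list. Gata2 was listed at 15.5 to 17.1 FPKM in Ctrl, 4.89 to 5.47 FPKM in IR, 16.7 to 17.2 FPKM in Ab_IR and 13.7 to 14.5 FPKM in L_IR. Its log2 fold changes were -1.51 in IR against Ctrl (adjusted p = 3.57e-05), 1.55 in Ab_IR against IR (adjusted p = 3.46e-07) and 1.30 in L_IR against IR (adjusted p = 9.25e-07). Tcf3, an E protein that pairs with Tal1, fell by 0.70 in IR (adjusted p = 0.000489), from 34.7 to 39.55 FPKM in Ctrl to 22.1 to 23.05 FPKM in IR, and was at 40.97 to 45.6 FPKM in Ab_IR. Cbfb, the partner of Runx1, rose by 0.28 in IR (adjusted p = 0.0316), at 48.3 to 50.97 FPKM against 36.7 to 43.7 FPKM in Ctrl. Over the tested partners the median log2 difference was -0.267 in IR, 0.066 in Ab_IR and 0.080 in L_IR, the last 2 against IR, beside -0.046, 0.061 and 0.073 over all rows tested.

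Of 28 other stem and progenitor factors, 8 were under 1 FPKM in all libraries and 19 were tested in IR against Ctrl. There 14 were lower and 3 higher, where 25.5% and 17.5% of all rows were. Of the 19, 6 were called lower and 1 higher, where 7.6% of all rows were called. The median log2 difference was -0.578, beside -0.046 over all rows. Gfi1b, a repressor of red cell and megakaryocyte precursors, fell by 2.40 on the log2(FPKM + 1) scale (adjusted p = 3.05e-05), from 29.2 to 33.2 FPKM in Ctrl to 4.41 to 5.92 FPKM in IR, and was at 30.4 to 33.7 FPKM in Ab_IR. Sox4, a factor of early progenitors, fell by 2.21 (adjusted p = 1.32e-05), from 8.48 to 8.99 FPKM to 1.02 to 1.25 FPKM. Egr1 (-1.10), Zbtb16 (-1.09), Bcl11a (-1.06) and Ikzf2 (-1.02) were the other factors called lower, with adjusted p from 0.000177 to 0.00159. No IR library reached 1 FPKM for Zbtb16 or Ikzf2, so these 2 passed the filter through Ctrl alone, as did 1 other gene of the list, and their differences were in part selected by the filter.

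Spi1, the ETS factor of the myeloid lineage, went the other way. It rose by 1.03 in IR (adjusted p = 0.000501), at 119 to 127 FPKM against 52.6 to 68.05 FPKM in Ctrl, and it was at 69.1 to 87.1 FPKM in Ab_IR and 71.8 to 73.35 FPKM in L_IR. Ikzf1, a lymphoid factor, did not pass the test (-0.12, adjusted p = 0.202). Myc, which drives growth, fell by 0.76 (adjusted p = 0.00139), from 67.9 to 82.8 FPKM to 41.5 to 46.8 FPKM, and at 39.3 to 44.5 FPKM in L_IR it did not differ detectably there from IR (-0.05, adjusted p = 0.463).

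**Figure D3:**
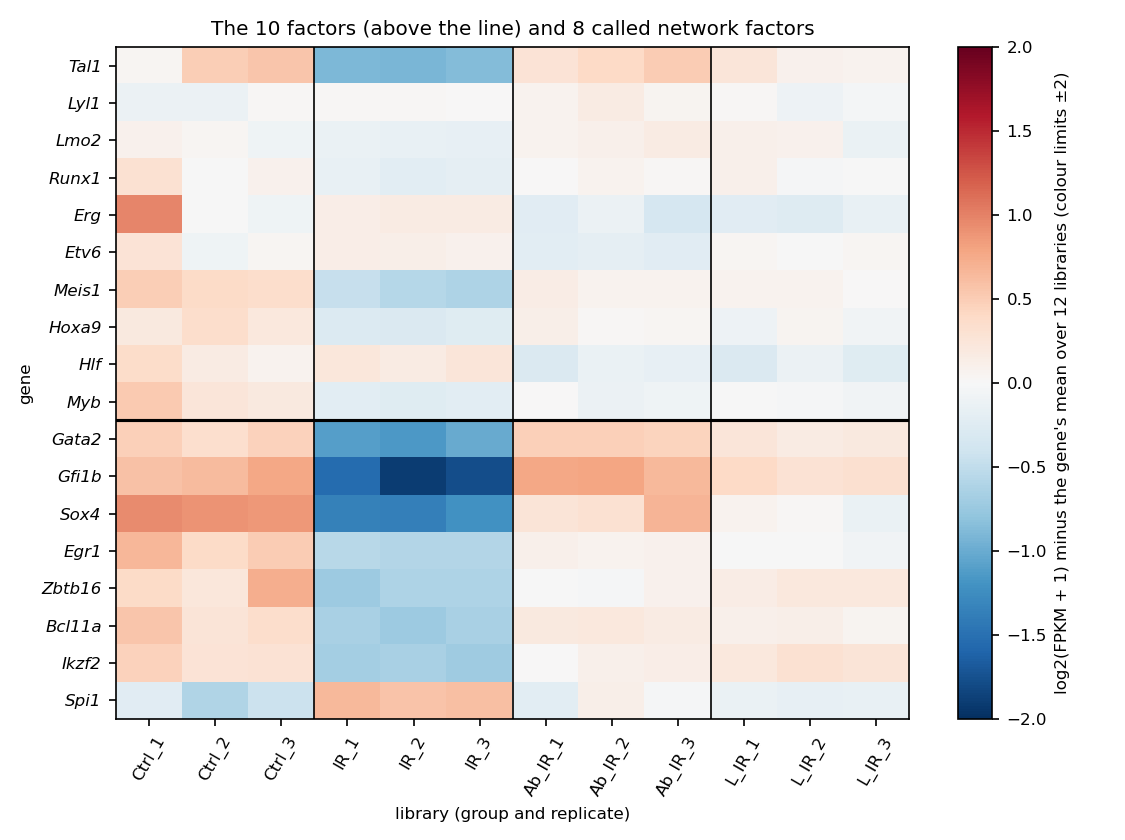
Log2(FPKM + 1) of each gene minus its mean over the 12 libraries (colour, limits ±2), with genes in rows and libraries in columns, and the 10 factors above the line. Tal1, Meis1 and the factors below the line other than Spi1 are blue in the 3 IR columns, Spi1 is red there, and Hlf, Erg and Etv6 are pale blue in Ab_IR.

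The 16 genes listed as known targets of these factors were all tested. In IR against Ctrl 11 were lower and 2 higher, where 25.5% and 17.5% of all rows were. Of the 16, 10 were called, where 7.6% of all rows were. The median log2 difference was -1.545, beside -0.046 over all rows. Among the genes called, all lower, were Flt3 (-2.46), Pf4 (-2.23), Epor (-2.19), Klf1 (-2.15), Cd34 (-2.13), Kit (-1.63), Itga2b (-1.52) and Csf1r (-1.02), with adjusted p from 8.06e-06 to 0.000178. For Flt3, 2 IR libraries reached 1 FPKM, so it too passed the filter through Ctrl, as did 1 other gene of the list. Kit, the stem cell factor receptor, was at 21.3 to 25.45 FPKM in Ctrl, 6.7 to 7 FPKM in IR, 17.4 to 19.1 FPKM in Ab_IR and 17.8 to 18 FPKM in L_IR. Mpo and Elane, granule genes of neutrophil precursors, were the most abundant of the list not called, at log2 differences of 0.02 (adjusted p = 0.894) and -0.10 (adjusted p = 0.550). In Ab_IR against IR 11 of the 16 were higher and 3 lower, where 39.4% and 29.4% of all rows were, and in L_IR against IR 11 were higher and 2 lower, where 40.8% and 26% were. In each of these comparisons 2 of the genes that passed had entered the test through 1 group alone. Of the 16 genes, 12 also stand in a list of sort or cell type markers, so the list is no separate measure of the factors' action.

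The genes whose pattern over the 12 libraries was nearest to that of Tal1 were sought among 4538 gene names with a mean of at least 10 FPKM, by the root mean square difference of log2(FPKM + 1) centred on each gene's mean. They were Dhrs11, a dehydrogenase gene, at a difference of 0.105, and Cirbp, which encodes a cold-induced RNA-binding protein, at 0.107, where Tal1 itself varied by 0.542. Dhrs11 had means of 24.8 FPKM in Ctrl, 10.2 FPKM in IR, 27.2 FPKM in Ab_IR and 19.9 FPKM in L_IR, and Cirbp of 11.8, 4.55, 13.8 and 10.1 FPKM in the same order.

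Markers of red cells, of platelets, and of mast cells, basophils and eosinophils were lower in IR, as Tal1 and Gata2 were. Summed over 11 erythroid genes, levels were 3521 to 4000 FPKM in Ctrl, 550 to 567 FPKM in IR, 3290 to 3532 FPKM in Ab_IR and 1751 to 1816 FPKM in L_IR. All 11 were lower in IR than in Ctrl, where 25.5% of all rows tested were. All 11 were higher in Ab_IR and in L_IR than in IR, where 39.4% and 40.8% of rows were. The summed megakaryocyte and platelet genes were at 73.1 to 83.4, 17.1 to 19.9, 163 to 166 and 102 to 108 FPKM in Ctrl, IR, Ab_IR and L_IR, and the 9 tested were lower in IR than in Ctrl, of which 5 entered the test through Ctrl, with fewer than 3 IR libraries at 1 FPKM. The summed mast cell, basophil and eosinophil genes were at 4354 to 5748, 540 to 546, 6244 to 6418 and 2754 to 2806 FPKM in that order, and all 10 were lower in IR than in Ctrl.

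Markers of neutrophils and monocytes moved the other way in sum, from 11030 to 12790 FPKM in Ctrl to 16200 to 16470 FPKM in IR. They were at 11940 to 12530 FPKM in Ab_IR and 8864 to 9086 FPKM in L_IR. Of 13 genes 6 were higher and 2 lower in IR than in Ctrl, where 17.5% and 25.5% of all rows were. Of the others 5 did not pass, and 2 genes were called higher and 2 lower. S100a9 had means of 1470 FPKM in Ctrl and 3770 FPKM in IR, and Mpo of 3140 and 3180 FPKM. B and plasma cell genes summed to 10040 to 13260 FPKM in Ctrl, 17380 to 18600 FPKM in IR, 17840 to 18470 FPKM in Ab_IR and 25560 to 26430 FPKM in L_IR. The bone and stroma genes summed to 168 to 210 FPKM in Ctrl and 12.4 to 14.1 FPKM in IR, and 6 of 7 tested were lower, 4 of which entered the test through Ctrl alone. Of the macrophage genes 2 of 8 tested were higher and 3 lower in IR than in Ctrl, near the 17.5% and 25.5% over all rows, and of the T and NK cell genes 5 of 9 tested were lower, 2 of which entered through Ctrl alone. None of the sort or cell type marker lists holds one of the 10 factors, and the part of these cell types in the factors' results was not tested.

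**Figure D4:**
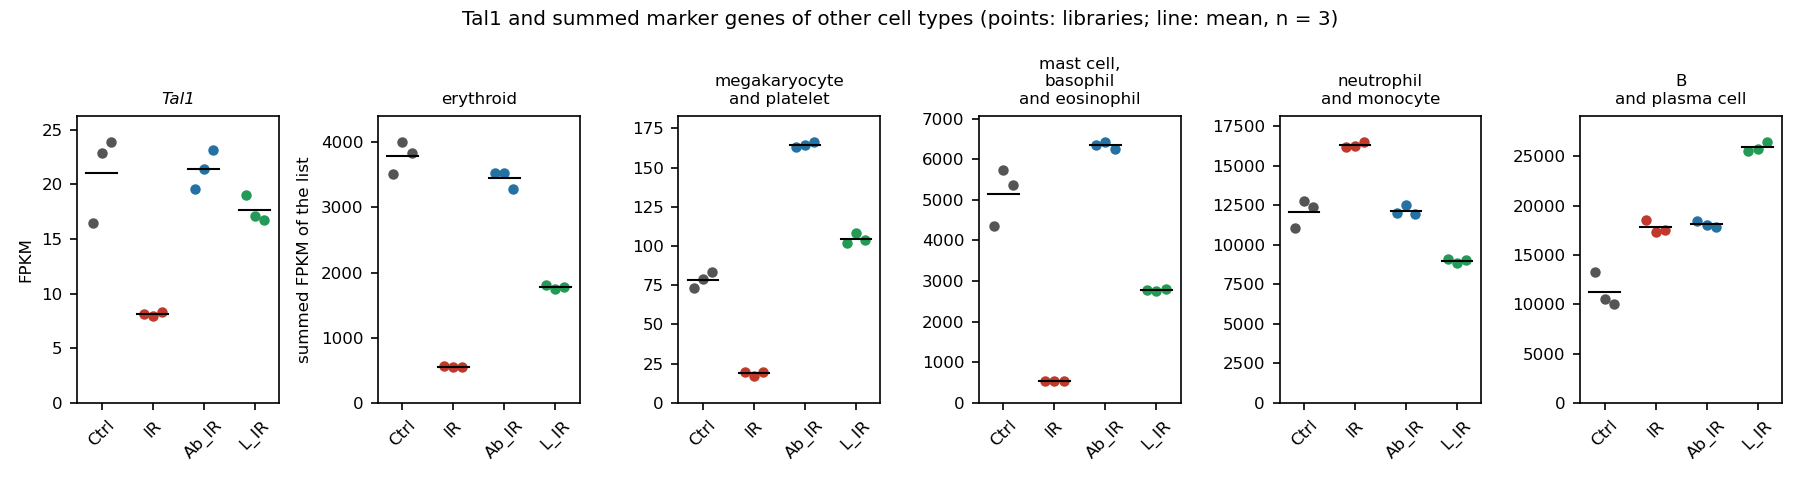
Tal1 (FPKM) and the summed FPKM of 5 marker lists (vertical axes, from 0) in the 12 libraries by group (horizontal axes), with points for libraries and lines for means of 3. Tal1 and the sums of the erythroid, the megakaryocyte and platelet, and the mast cell, basophil and eosinophil lists are lowest in IR. The neutrophil and monocyte sum is highest there, and the B and plasma cell sum is highest in L_IR.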

How the data were processed

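Per the labels, RNA of cells sorted as HSCs was extracted with a micro column kit and made into stranded mRNA libraries. The authors deposited 1 table of FPKM per library, with no counts. Their processing notes name fastp, HISAT2, StringTie and GRCm38 (mm10), while the study's methods name RSEM and DESeq2, and tool versions in the notes are not given in the sources used here. FPKM are not counts, so a count test was not run. Each pair of groups was fitted alone on the log2(FPKM + 1) scale by limma 3.58.1 (R 4.3.3, two-sided moderated test with a mean-variance trend), on rows with at least 1 FPKM in at least 3 libraries, with Benjamini-Hochberg adjustment over all rows. The scripts were tested on simulated data. Values as low as 0.01 FPKM in rows under 100 bases left no way back to whole reads. Positions are from GENCODE M21, to which 96.5% of names matched a single gene, and upstream windows are from RefSeq. Of the 31340 rows, 62 names stand on more than 1. Genes named from the lists were those called in IR against Ctrl by both thresholds and the 2 most abundant others of each list, and the nearest genes were sought for members so called. Some genes that this rule names are not reported here. The members and lists were chosen with earlier results of these data known. Alternatives were another pseudocount, no filter, 3 other scalings, a fit with no trend, a joint fit of the 12 libraries, the same with the Nppa split (at least 10 FPKM) as a term, a block for replicate number, and the omission of each library in turn. Same-numbered libraries did not deviate together (correlations of -0.268 to 0.224), so the numbers were not taken as pairs. Python 3.11.15 with matplotlib 3.10.9 made the plots.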

Additional observations from a re-analysis of the deposited data

How the results depend on the processing

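Tal1 in IR against Ctrl kept its direction and its call under every alternative run, at log2 differences of -1.42 to -1.16. The causes of the changes below were not tested. Members called in IR against Ctrl went from 1 to 2 with a pseudocount of 0.1, and were 1 to 2 on leaving out a library. In Ab_IR against IR they were 2 with the pseudocount of 0.1 and 2 with the Nppa split as a term. In L_IR against IR they were 2 with the pseudocount, 0 with quantile normalization, 0 with median scaling, 2 with the Nppa split and 0 to 1 on leaving out a library. With the Nppa split, Ab_IR and L_IR are set against Ctrl replicate 1 alone, so no count against Ctrl is given. The replicate block left the counts of members called at 1, 1, 1, 0, 0 and 0 in the 6 comparisons, and at adjusted p alone gave 4, 9, 8, 1, 0 and 0 where the fit without it gave 5, 9, 8, 2, 0 and 0. At adjusted p alone the joint fit of all 12 libraries gave 5 members in L_IR against IR, 0 in Ab_IR against L_IR, and 4 each in Ab_IR and L_IR against Ctrl.

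Rows called went from 914 to 1512 (pseudocount) and 2079 (Nppa split) in Ab_IR against IR, and from 756 to 1294 and 1662 in L_IR against IR. They went from 65 to 165 (pseudocount) and 116 (without immunoglobulin genes) in Ab_IR against L_IR. In Ab_IR against Ctrl they went from 112 to 73 (no filter), where leaving out a library gave 60 to 123 and an Ab_IR library 60 to 65. Counts against Ctrl with the Nppa split are left out, since they rest on Ctrl replicate 1 alone.

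Signs turned as follows (log2). With the Nppa split, Erg was 0.20 in IR against Ctrl, Runx1 -0.060 and Myb -0.15 in Ab_IR against IR, Runx1 -0.070, Lyl1 0.023 and Myb -0.12 in L_IR against IR, and Lmo2 -0.076 and Tal1 0.092 in L_IR against Ctrl. With quantile normalization, Lyl1 was -0.016 and Etv6 -0.032 in IR against Ctrl, Lmo2 -0.025 in Ab_IR against Ctrl, and Lmo2 -0.073 and Lyl1 -0.029 in L_IR against Ctrl. Without immunoglobulin genes, Lyl1 was -0.069 in Ab_IR against IR, Tal1 -0.028 in Ab_IR against Ctrl and Etv6 0.031 in L_IR against Ctrl, and in Ab_IR against L_IR Meis1 was -0.036, Hoxa9 -0.006, Hlf -0.065, Runx1 -0.12, Lmo2 -0.049 and Lyl1 -0.0084. On leaving out a library, IR against Ctrl ranged from -0.060 to 0.088 for Hlf, -0.33 to 0.20 for Erg and -0.046 to 0.14 for Etv6. Ab_IR against L_IR ranged from -0.017 to 0.066 for Hlf, -0.012 to 0.047 for Runx1, -0.078 to 0.033 for Erg and -0.064 to 0.0028 for Myb. Tal1 in Ab_IR against Ctrl ranged from -0.12 to 0.13, and in L_IR against Ctrl Lmo2 ranged from -0.047 to 0.079 and Etv6 from -0.13 to 0.057. The FPKM give no depth, so counting error could not be weighed, and Meis1, Hlf and Hoxa9 lie within a few FPKM of the filter.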
